A study of Mus musculus with 8 samples.

Results

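Type I interferon-stimulated genes were followed in Paneth cells, the secretory cells at the base of the small intestinal crypts that fill the gut lumen with α-defensins and lysozyme. The 43 genes were taken by name, as symbols, from a count table of 55414 Ensembl gene identifiers, and all 43 were found in it. They were sorted by role into 4 signal transducers and regulators, 3 genes of the ISG15 system, 5 sensors of viral nucleic acid, 6 genes of the OAS family, 4 of the IFIT family, 8 other antiviral effectors, 4 genes of the PARP and DTX3L group and 9 other induced genes. The cells came from C57BL/6J mice that had eaten standard chow (control, n = 4) or zinc depleted chow (zinc deficient, n = 4) for 7 weeks, and were sorted by FACS from small intestinal tissue. The labels name no transgene and no other treatment for either group. Each mouse gave 1 RNA-seq library of a stranded kit that selects mRNA. The labels give neither age nor litter, and how the table came to its counts beyond the aligner is not given in the sources used here.

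Type I interferons bind the receptor made of IFNAR1 and IFNAR2, and the kinases JAK1 and TYK2 then set off signaling in the cell. STAT2 and IRF9 are part of a complex that binds the interferon-stimulated response element, a DNA element found before many genes that block viral entry, translation, replication or release. Type III interferon, to which the gut epithelium is especially responsive, uses another receptor and the same complex, so the genes below do not tell the ligands apart. Paneth cell granules are rich in zinc.

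Library sizes ranged from 8557690 to 12648005 counts. Paneth cell products made up most of the RNA, and the Defa share alone was 35.7% to 51.0% of a library. The mice at these ends stood apart from the others: control 1 had the lowest Defa share and the highest scaling factor by the trimmed mean of M-values (TMM, 1.57), and zinc deficient 2 had the highest Defa share and the lowest factor (0.719). Unless stated otherwise, a level below is a TMM-scaled CPM, the counts of a gene in a TMM-corrected library scaled to 1000000 counts, and a difference is a log2 fold change of zinc deficient against control mice with its standard error (SE). A gene was called when its edgeR quasi-likelihood test, adjusted by Benjamini-Hochberg over the 10911 genes that passed the filter on low counts, gave an adjusted p under 0.05. The p-values measure the spread between these 8 mice. In bulk RNA, fewer cells of a type and less RNA per cell cannot be told apart.

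Of the 43 genes, 30 passed the filter and were tested, and a gene could pass through the diet in which it was higher. Higher levels on the zinc deficient diet were called for 5 of them (Irf7, Usp18, Oas1a, Oasl2 and Ifi27), and lower levels for 0. Over all genes tested, 0.147% were called higher (16 genes) and 0.257% lower (28 genes), so 5 of the 16 genes called higher were interferon-stimulated genes of this set. The set was put together with earlier results of these data known, so its shares here and below are not an independent test. At an unadjusted p under 0.05, 18 of the 30 were higher and 0 lower, against 4.43% and 6.04% of all genes tested. The fitted difference was above 0 for 26 of the 30 (49.3% of all genes tested), and its median was 0.69, beside -0.0052 for all genes. Levels of all 4 zinc deficient mice lay above those of all 4 control mice for 12 of the 30 (2.3% of all genes), and below them for 0 (3.79% of all genes). DESeq2, run as an alternative, called 10 higher of the 38 that had an adjusted p, beside 0.483% of all genes with an adjusted p. edgeR without a filter on low counts called 12 of 42 higher, beside 0.568% of all genes.

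**Figure D1:**
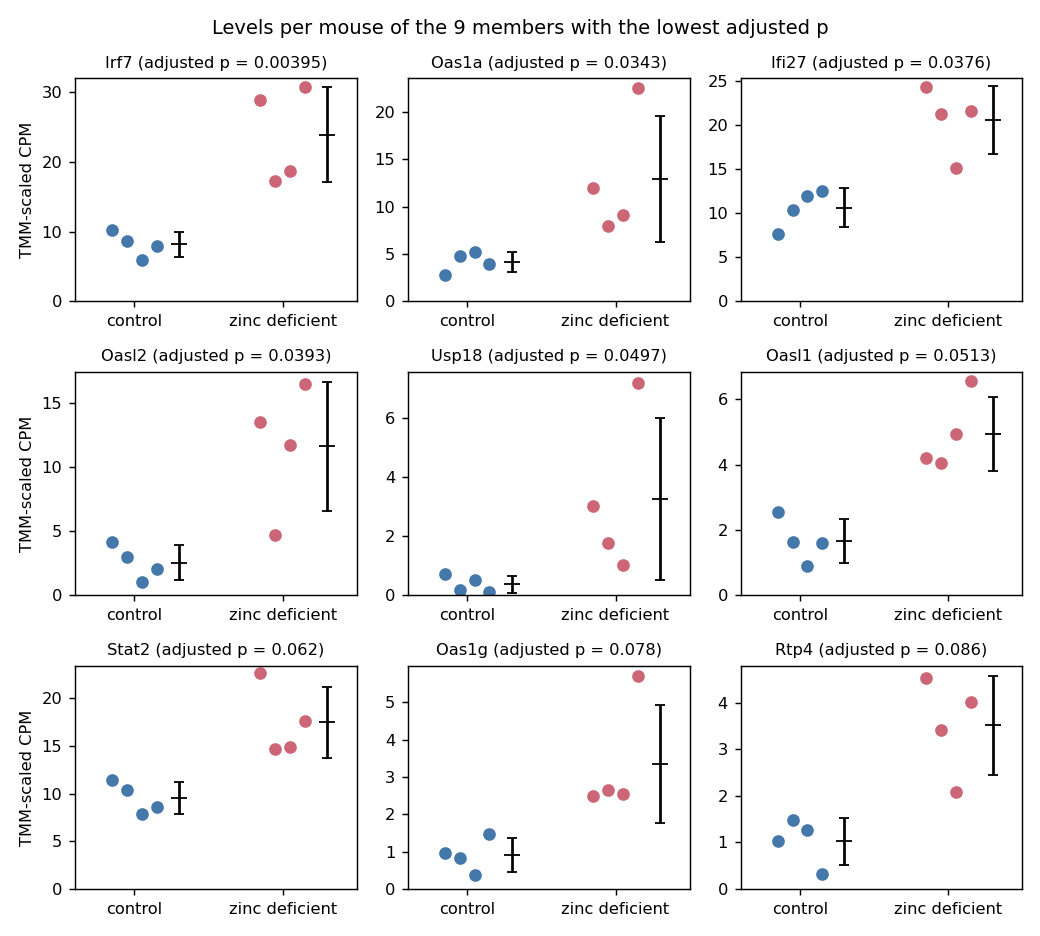
TMM-scaled CPM (y axis, from 0) of the 9 interferon-stimulated genes with the lowest adjusted p, by diet. Each point is 1 mouse (4 per diet, in the order of their numbers), and the bar gives the mean and SD of the diet. In all 9 panels the 4 zinc deficient mice lie above the 4 control mice, and zinc deficient 4 is the highest mouse in the panels of Irf7, Oas1a, Oasl2, Usp18, Oasl1 and Oas1g. The 9 were chosen by their adjusted p in these data, so this separation adds no support. Among the 30 tested genes 12 separated in this way, beside 2.3% of all genes. By library size alone it holds only for Usp18, Oas1a, Oas1g, Ifi27 and Rtp4.

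Among the signal transducers and regulators, 2 of 4 genes were called higher, and all 4 had TMM-scaled levels that did not overlap between diets. With library size alone as the scale, only Usp18 kept this separation. Irf7 encodes the transcription factor that switches on the interferon-α genes and is itself induced by interferon. Its levels were 10.2, 8.69, 5.93 and 7.94 TMM-scaled CPM in control mice 1 to 4, and 28.8, 17.3, 18.7 and 30.7 in zinc deficient mice 1 to 4. On this scale every zinc deficient mouse was well above every control mouse, whereas with library size alone the diets overlapped. Irf7 rose by 1.52 on the log2 scale (SE 0.22, adjusted p = 0.00395), or 2.88-fold, the lowest adjusted p of the 43 genes. Its gene record (ENSMUSG00000025498, chr7:140842619-140846398, minus strand, GRCm39) has 10 exons in the canonical transcript, and shares 63 bases with Phrf1 on the other strand.

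Usp18 encodes the protease that takes ISG15 off its targets and that also holds back signaling from IFNAR2. It was rare in control mice, with 13, 2, 4 and 1 counts, and reached 28, 14, 13 and 77 counts in zinc deficient mice 1 to 4. On the TMM scale these were 0.701, 0.164, 0.504 and 0.106 CPM against 3.02, 1.77, 1.04 and 7.2 CPM. The diets did not overlap, and zinc deficient 4 was well above its 3 diet mates. The fitted rise was the largest of the 30 genes tested, 3.02 on the log2 scale (SE 0.64, adjusted p = 0.0497), and its adjusted p was the closest to the threshold of the 5. Without zinc deficient 4 the difference was 2.26 (adjusted p = 0.220), and without control 1 it was 3.69, below the 4.16 of Oas3. Usp18 was not called with the size factors of DESeq2 (adjusted p = 0.0509) or without the robust option (0.0709). Usp18 (ENSMUSG00000030107, chr6:121222848-121247877, plus strand, 11 exons) is shown with the 2 places before its start where the core of the interferon-stimulated response element occurs, GAAA, any 2 bases, then GAAA, on either strand. Capitals mark the core, read on the strand of the gene, at positions -75 and -51 from the start of the canonical transcript (chr6:121222772-121222801 and chr6:121222796-121222825 on GRCm39).
Usp18, position -75: ggtgcctgagTTTCGCTTTCctttggatct
Usp18, position -51: ggatctagggGAAAACGAAAgcttggcggt

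Stat2 and Irf9 encode parts of the complex that binds the element. Stat2 levels were 11.4, 10.4, 7.82 and 8.58 in control mice and 22.7, 14.7, 14.9 and 17.7 in zinc deficient mice, a difference of 0.86 (SE 0.19) that missed the threshold (adjusted p = 0.0620). Irf9 ran from 5.72 to 10.8 and from 10.8 to 13.7, with a difference of 0.66 (SE 0.21, adjusted p = 0.221). Its diets nearly touched, at 10.79 in control 1 and 10.85 in zinc deficient 3. The differences of both genes were smaller than that of Irf7.

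The OAS family encodes enzymes that sense double-stranded RNA and make oligoadenylates, which activate RNase L, along with OAS-like proteins. All 5 members that were tested had a difference above 1.5, all 5 had an unadjusted p under 0.05, and the diets did not overlap for 4 of them. Oas1a and Oasl2 were called. Oas1a stood at 2.8, 4.84, 5.17 and 3.92 TMM-scaled CPM in control mice and at 12, 7.96, 9.09 and 22.5 in zinc deficient mice. Its difference was 1.65 (SE 0.31, adjusted p = 0.0343), and zinc deficient 4 was again the highest mouse. Oasl2 gave 4.15, 2.95, 1.01 and 2.01 in control mice and 13.5, 4.67, 11.7 and 16.5 in zinc deficient mice. The gap between the diets was narrow, since zinc deficient 2 was close to control 1, but the difference was 2.12 (SE 0.40, adjusted p = 0.0393).

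Oasl1, which in the mouse restrains the translation of Irf7 mRNA, ran from 0.882 to 2.53 in control and from 4.04 to 6.55 in zinc deficient mice. It fell just short of a call (1.52, SE 0.33, adjusted p = 0.0513). Oas1g was at 0.971, 0.82, 0.378 and 1.48 against 2.48, 2.65, 2.55 and 5.71 (1.85, SE 0.44, adjusted p = 0.0780). For Oas3 the diets overlapped, at 0 to 0.701 in control and 0.253 to 5.14 in zinc deficient mice, and the fitted difference of 2.71 had a wide error (SE 0.84, adjusted p = 0.223). Oas2, not tested for low counts, was at 0 to 0.27 in control mice and at 0.324, 0.379, 2.79 and 3.65 in zinc deficient mice, so that zinc deficient 3 and 4 held most of its 88 counts. The OAS genes sit in 2 clusters of chromosome 5, with Oasl2 and Oasl1 next to each other (chr5:115034997-115050295 and chr5:115061294-115075974, plus strand) and Oas2, Oas3, Oas1g and Oas1a further along (chr5:120868398-121046449, minus strand).

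Oas1a (ENSMUSG00000052776, 7 exons) and Oas1g (ENSMUSG00000066861, 7 exons) are near copies, with 96.7% identity over coding sequences of 1101 bases each. Of all windows of 70 bases in the canonical transcript, 51.5% of Oas1a and 53.7% of Oas1g occur in no annotated transcript of another gene. The rest of the genome was not searched for them. How reads that match both genes were counted is not given in the sources used here, so the split of counts between them is uncertain. Below are the 30 coding bases where the pair differs most, shown because a read there can be told apart, with the 7 differing bases in capitals.
Oas1a, coding bases 498 to 527: tGatcccAGaatctaTGccatcctcatcGA
Oas1g, coding bases 498 to 527: tAatcccTTaatctaCAccatcctcatcTG
The same copy carried the response element. A stretch with 2 overlapping cores lies at positions 3 and 9 of the canonical transcript of Oas1a (chr5:121045589-121045618 and chr5:121045583-121045612) and at -49 and -43 before that of Oas1g (chr5:121025675-121025704 and chr5:121025669-121025698), with the same letters in both genes.
Oas1a and Oas1g, first core: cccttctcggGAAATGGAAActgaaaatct
Oas1a and Oas1g, second core: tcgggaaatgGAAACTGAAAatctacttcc

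**Figure D2:**
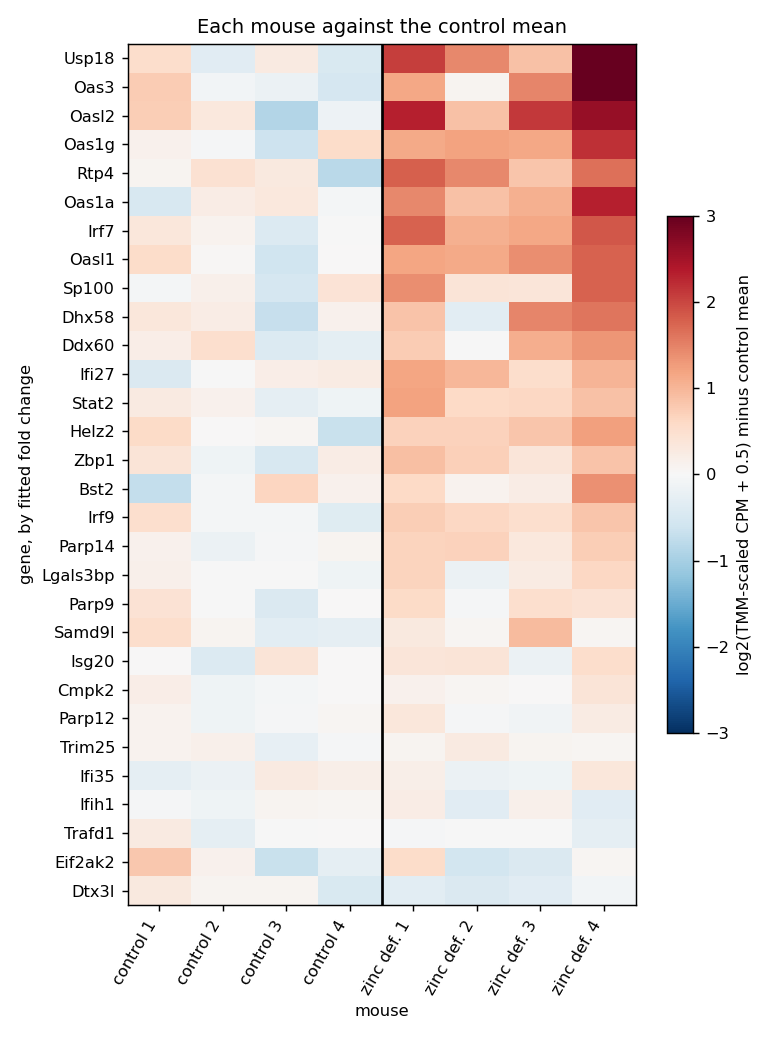
Level of each of the 30 tested interferon-stimulated genes in each of the 8 mice, as log2(TMM-scaled CPM + 0.5) minus the mean of the 4 control mice (color, limited at 3 in either direction). Genes are ordered by the fitted difference, with Usp18 (3.02) at the top and Dtx3l (-0.34) at the bottom, and the line parts the diets; zinc deficient 4 and 1 are the darkest columns.

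Mice of a diet were not alike over these genes. Zinc deficient 4 was the highest of its diet for 18 of the 30 tested genes and zinc deficient 1 for 9, while zinc deficient 2 was the lowest for 16. In the control group, control 1 was the highest for 19. The summed level of the 43 genes was 316, 279, 260 and 262 TMM-scaled CPM in control mice 1 to 4 and 439, 332, 363 and 469 in zinc deficient mice 1 to 4, or 279 ± 25.6 and 401 ± 64.1 (SD, n = 4 each). Scaled by library size alone, the sums were 327 ± 118 and 360 ± 81.7 CPM, closer to each other than the spread within a diet. Together the 43 genes made up 0.0238% to 0.0495% of a library.

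Ifi27, whose small membrane protein is a common marker of an interferon response, was the only other induced gene that was called. Control mice had 7.6, 10.3, 12 and 12.5 TMM-scaled CPM and zinc deficient mice 24.3, 21.2, 15.2 and 21.6. The groups were apart in every pair of mice, at 10.6 ± 2.20 in control and 20.6 ± 3.85 in zinc deficient mice (SD, n = 4 each). The difference was 0.97 (SE 0.20, adjusted p = 0.0376), or 1.95-fold. Ifi27 (ENSMUSG00000064215, chr12:103392254-103407799, plus strand, 7 exons) overlaps Ifi27l2a on the other strand over 7825 bases, although Ifi27l2a had only 13 counts in all mice against 1294 for Ifi27. A single core lies at position -25 of its promoter (chr12:103400382-103400411).
Ifi27, position -25: gagagctgggGAAATAGAAAcctatcttat

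Rtp4 and Helz2, also in the group of other induced genes, separated the diets without a call. Rtp4, a chaperone of receptors that also limits flaviviruses, was at 0.318 to 1.48 in control and 2.07 to 4.53 in zinc deficient mice (1.75, SE 0.43, adjusted p = 0.0860). Helz2, a helicase with zinc fingers and a coactivator of nuclear receptors, was at 5.51 to 13.7 and 14.8 to 21.9 (0.84, SE 0.23, adjusted p = 0.141). Sp100, a component of PML nuclear bodies, and the secreted glycoprotein Lgals3bp had an unadjusted p under 0.05 and overlapping levels, with differences of 1.47 (SE 0.51) and 0.37 (SE 0.17). Ifi35 and Trafd1, a feedback inhibitor of innate signaling, gave 0.07 (SE 0.22) and -0.10 (SE 0.18). The differences of this group thus ran from -0.10 to 1.75, with a median of 0.84 over 7 genes.

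Sensors of viral nucleic acid gave mixed values, with 0 of 5 called and overlapping diets for each. Differences of 1.32 (SE 0.50) for Dhx58, which encodes LGP2, 1.06 (SE 0.45) for the helicase gene Ddx60 and 0.70 (SE 0.22) for Zbp1, a sensor of Z-form nucleic acid that can trigger necroptosis, had an unadjusted p under 0.05. Zbp1 was at 9.01, 6.15, 4.66 and 7.94 in control and 13.1, 11.4, 8.85 and 12.6 in zinc deficient mice, and only zinc deficient 3 fell within the control range. Ifih1, which encodes MDA5, was level at 18.9 ± 1.28 and 18.1 ± 3.96 (-0.05, SE 0.17). Eif2ak2, which encodes the kinase PKR, was at 13.8, 8.44, 4.66 and 6.25 against 11.5, 5.05, 5.58 and 8.04, so the spread within each diet was larger than the difference of -0.16 (SE 0.32).

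Of the PARP and DTX3L genes, which handle ADP-ribosylation and ubiquitin in antiviral and DNA damage responses, 0 of 4 were called. Parp14 had levels of 4.02 to 5.02 in control and 5.82 to 7.95 in zinc deficient mice (0.66, SE 0.22, adjusted p = 0.252), without overlap. Parp9 and Dtx3l encode partners of 1 complex and start next to each other on opposite strands of chromosome 16, where their records share 682 bases. Parp9 gave 0.37 (SE 0.23), whereas Dtx3l gave -0.34 (SE 0.23), the lowest difference of the 30 genes. Whether reads were counted by strand is not given, so the counts of genes with an overlapping partner on the other strand, 23 of the 43, carry that uncertainty. The record of Ifi35 shares 3400 bases with Vat1, a gene with 4423 counts in all mice against 678 for Ifi35, and that of Parp9 shares 16860 bases with the noncoding gene Gm15564 (816 counts against 661). Transcripts under 80% unique in windows of 70 bases were those of Oas1a, Oas1g, Ifit3, Ifit3b, Isg15, Herc6 and Ifi35.

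Low counts kept 4 of the 8 other antiviral effectors and 2 of the 3 genes of the ISG15 system out of the test. Of 8 other antiviral effectors, 4 were tested and 0 called, with differences of 0.68 (SE 0.34) for Bst2, which tethers budding viruses to the cell, 0.36 (SE 0.26) for Samd9l, 0.32 (SE 0.28) for the exonuclease gene Isg20 and 0.16 (SE 0.30) for Cmpk2. Trim25, a ubiquitin and ISG15 ligase, was close between diets, at 58 ± 7.01 in control and 63 ± 4.46 TMM-scaled CPM in zinc deficient mice (0.12, SE 0.14). Isg15 itself, the ubiquitin-like modifier, was not tested, at 0.378, 0.328, 0.756 and 0.106 against 1.4, 1.01, 0.877 and 1.59. Its 4 zinc deficient values were above its 4 control values. Herc6, the main ISG15 ligase of the mouse, was at 0.593 to 1.97 and 0.399 to 1.59.

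The 13 genes that were not tested held 0 to 88 counts each over the 8 mice, and summed to 164 counts in control and 393 in zinc deficient mice. Among them were all 4 IFIT genes, which bind foreign RNA and block its translation. Ifit1 was at 0 to 0.539 in control and 0.505 to 1.68 in zinc deficient mice, and Ifit2 went the other way at 0 to 1.01 and 0.0798 to 0.655. Ifit3 had 0 counts in all mice and Ifit3b 2 counts, both in zinc deficient 4. These are near copies too (99.1% identity over 1209 coding bases each), and 61.8% and 60.9% of their windows of 70 bases are unique. Their cores are identical, at -126 and -92 before Ifit3 (chr19:34560763-34560792 and chr19:34560797-34560826) and at -159 and -125 before Ifit3b (chr19:34585159-34585188 and chr19:34585193-34585222), and are shown because these promoters hold the element beside transcripts at or near 0.
Ifit3 and Ifit3b, first core: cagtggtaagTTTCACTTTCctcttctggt
Ifit3 and Ifit3b, second core: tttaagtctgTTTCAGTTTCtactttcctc
In the coding sequence the pair is told apart by few bases, here with the 3 differing bases of a stretch of 30 in capitals.
Ifit3, coding bases 247 to 276: tcagagcacaaTgatcaaTcagaaattcgT
Ifit3b, coding bases 247 to 276: tcagagcacaaAgatcaaGcagaaattcgC

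Mx1 and Mx2, the dynamin-like GTPases against influenza and other viruses, were close to undetected. Mx1 had 2 counts, both in zinc deficient 3, and Mx2 was found in control 3 and in zinc deficient 1 and 4 at up to 0.748. In C57BL/6 mice the Mx1 gene is known to lack coding exons and to give no working protein. Rsad2, which encodes viperin, stayed at or under 0.468 in every mouse. For Xaf1, a gene of apoptosis, levels were 0.106 to 0.539 in control and 0.957 to 2.27 in zinc deficient mice. Ifi44 was found in control 1 alone among control mice (0.378) and in all 4 zinc deficient mice (0.216 to 2.34), and Trim30a was at 0.106 to 0.755 and 0.631 to 1.4. A count of 0 in 1 library allows 0.237 to 0.351 CPM (3 counts), here by library size and without TMM scaling. A level under that size in 1 library could not be told from 0, and this floor sets no limit for a difference between diets.

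**Figure D3:**
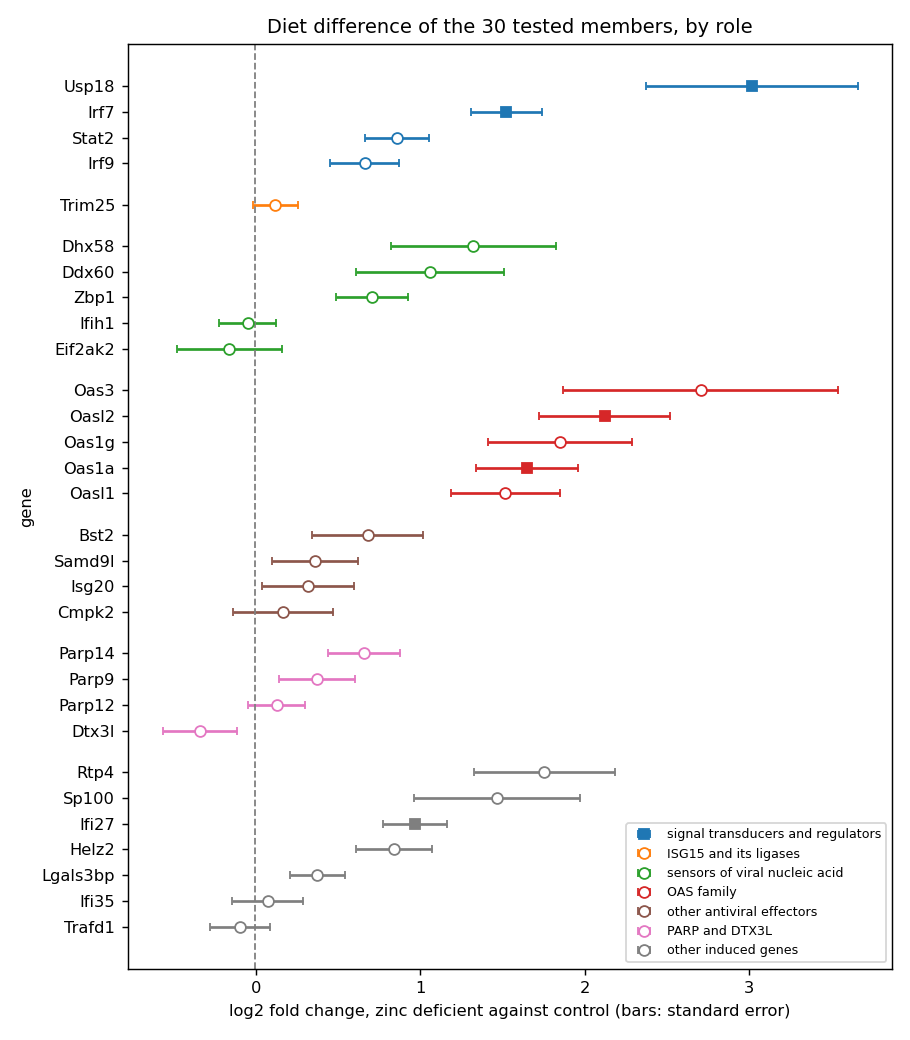
Log2 fold change of zinc deficient against control mice (x axis) with its standard error for the 30 tested genes, grouped by role (color) and ordered within each role. Filled squares mark the 5 called genes and open circles the others; Usp18 and the OAS family lie furthest to the right, and 4 genes (Dtx3l, Eif2ak2, Trafd1 and Ifih1) lie below 0.

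Per length, these were mostly low transcripts. TPM, computed from the counts and the summed exon length, averaged 0 to 10.9 over the 8 mice with a median of 0.799, and were above 5 for 2 genes and under 0.5 for 18. They carry no TMM scaling, so they serve here to compare genes and not diets. The order was led by Lgals3bp (10.9 ± 4.08 TPM, SD, n = 8), Trim25 (9.04 ± 3.43), Bst2 (3.69 ± 1.34), Irf7 (3.41 ± 1.77) and Ifi27 (2.74 ± 0.703). Compared gene with gene, the levels of Lgals3bp and Trim25 overlapped within their SDs, as did those of Bst2, Irf7 and Ifi27. These SDs are over the mice of both diets, so they include the diet differences. Of the other called genes, Oasl2 was at 0.90 ± 0.689, Oas1a at 0.822 ± 0.515 and Usp18 at 0.411 ± 0.487. From the highest level down, the 5 called genes were thus 4, 5, 20, 21 and 28 of 43, and the 2 highest genes were not called. These ranks depend on the lengths used. The summed exon length was 7989 bases for Oas1a, 6374 for Oasl2 and 3250 for Usp18. Their canonical transcripts have 1911, 3123 and 1780 bases.

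**Figure D4:**
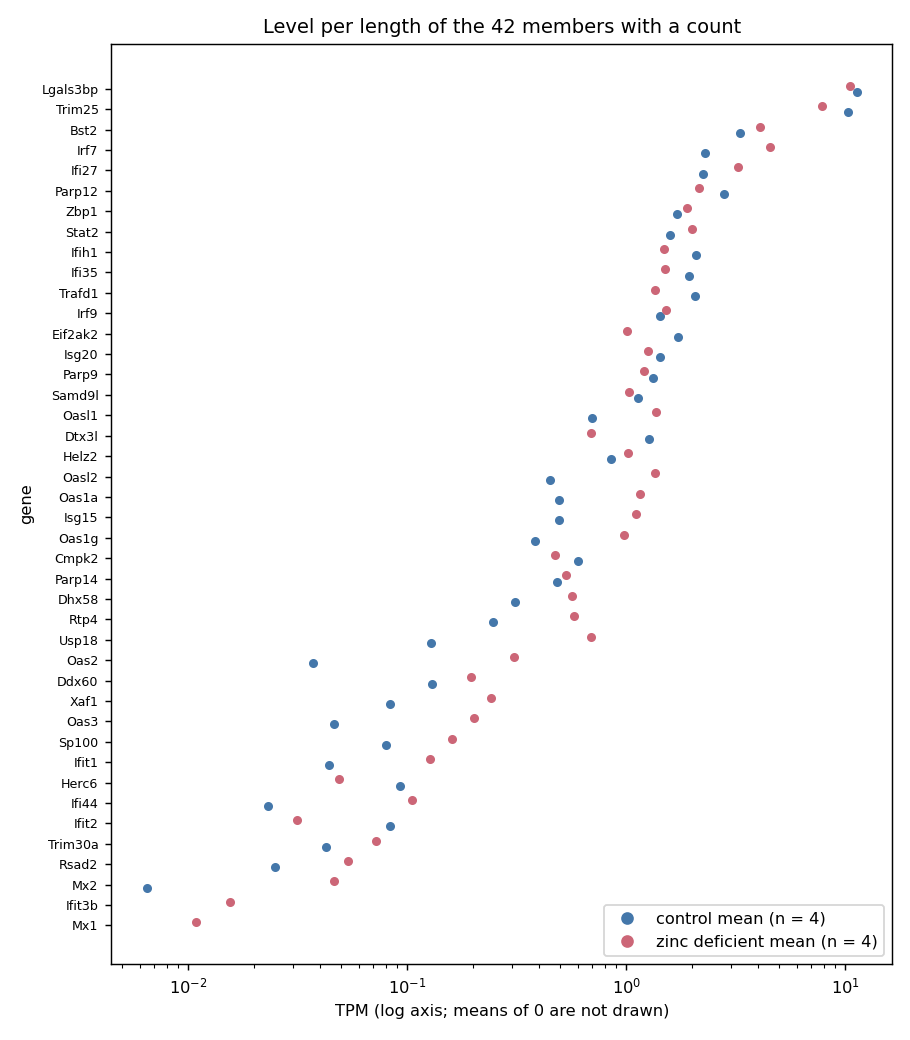
Mean TPM (x axis, log scale) of the 42 interferon-stimulated genes with a count, for control and zinc deficient mice (n = 4 each), ordered by the mean over all mice. TPM are not TMM-scaled, and for some genes the diets stand in the other order than on the TMM scale. Lgals3bp averaged 11.3 TPM in control and 10.5 in zinc deficient mice, but 58.4 and 75.6 TMM-scaled CPM. Lgals3bp and Trim25 are the highest; means of 0 are not drawn, such as those of Mx1 and Ifit3b in control mice.

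The response element was searched in the promoters, from 250 bases before to 50 after the start of the canonical transcript in GENCODE M39. A core as spelled above, on either strand, was in 20 of 43 interferon-stimulated genes (46.5%), against 829 of 21627 windows of protein-coding genes (3.83%). Among the tested genes it was in 13 of 30 (43.3%), beside 351 of 10547 (3.33%). The γ-activated site, TTCNNNGAA, which reads the same on both strands, was in 6 of 43 (14.0%) and in 8.85% of all windows. Of the 13 tested genes with a core, 3 were called (Usp18, Oas1a and Ifi27), and the median difference was 1.06, with a range of -0.16 to 3.02. Of the 17 without a core, 2 were called (Irf7 and Oasl2), with a median of 0.37 and a range of -0.34 to 2.12. The range of one group thus lay over most of the other. A match describes letters in this window only.

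Genes upstream of the response were looked at by lists of ligands, receptors, signaling and sensing genes. All 20 interferon genes listed (type I, type III and Ifng) had 0 counts in all 8 mice, of 85938593 counts in total, which allows up to 0.0349 CPM. How reads that match more than 1 gene were counted is not given, so this bound covers counted reads only. Over these and 2 lists of other interferon pathway genes beside the 43 (6 lists in all), 58 of 115 genes were tested, 0 were called by edgeR, and 7 were higher and 3 lower at an unadjusted p under 0.05. DESeq2 also called 0 of them. Receptor genes were present in both diets, with Ifnar1 at 13.8 ± 1.47 and 12.6 ± 2.2, Ifnar2 at 4.51 ± 1.25 and 4.2 ± 0.469 and Ifnlr1, the type III receptor chain, at 2.13 ± 1.08 and 2.18 ± 0.844 TMM-scaled CPM (SD, n = 4 each). The median difference over the 6 receptor genes was -0.10. For 9 tested signaling genes it was 0.12, with the largest value for Socs3, an inhibitor of cytokine signaling (0.81, SE 0.23, adjusted p = 0.154). For 11 sensing genes it was 0.09, and Sting1, the adaptor of DNA sensing, was the single one without overlap (7.8 ± 1.29 and 12 ± 2.17; 0.61, SE 0.20, adjusted p = 0.243).

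Further genes known to respond to interferon, written as a list of 47, were also examined. In this list 25 genes were tested, 0 called, 4 higher and 2 lower at an unadjusted p under 0.05, and 0 without overlap, with a median difference of -0.0036. Higher were Ifitm3, an inhibitor of viral entry (1.02, SE 0.37, with 105 in zinc deficient 4 and 31.1 to 43.8 in its diet mates), the large ubiquitin ligase gene Rnf213 (0.90, SE 0.29), the RNA editing gene Adar (0.44, SE 0.19) and the galectin gene Lgals9 (0.33, SE 0.15). Lower were Slfn9 (-0.82, SE 0.28) and Trim21 (-0.71, SE 0.33). Of 18 genes best known from the response to interferon γ, 7 were tested and 0 called, with a median of -0.03. Igtp, a GTPase of that response, was at 0.635 to 2 in control and 2.02 to 3.74 in zinc deficient mice (1.19, SE 0.40, adjusted p = 0.258). The list of 43 was put together with earlier results of these data known, and the difference between it and these lists was not tested.

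**Figure D5:**
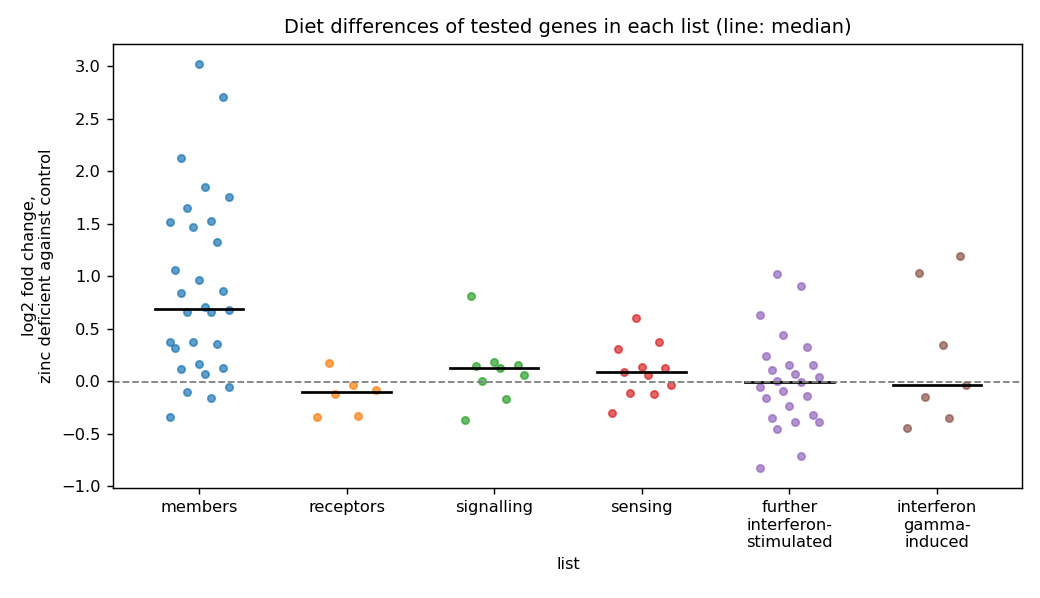
Log2 fold change of zinc deficient against control mice (y axis) for each tested gene of 6 lists, with the median of each list as a line. The medians are 0.69 for the 43 interferon-stimulated genes (30 tested), -0.10 for receptors, 0.12 for signaling, 0.09 for sensing, -0.0036 for further interferon-stimulated genes and -0.03 for genes induced by interferon γ.

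Markers of other cell types were read beside these genes. Of 23 immune cell markers, 16 had 0 counts in all mice, among them Cd3e, Cd8a, Adgre1, Csf1r and Siglech. The summed level was 14.9 to 40.3 TMM-scaled CPM in control and 36.9 to 51.8 in zinc deficient mice, almost all of it from Lyz2, whose sequence is close to that of the very abundant Lyz1. Ptprc, the marker of all leukocytes, was at 0 to 0.378 in 7 of the mice and at 2.55 in zinc deficient 3. In zinc deficient 4, Ptprc was at 0.0935. All 4 counts of Gzmb, another marker of this list, were in zinc deficient 4 (0.374). Stromal and vessel markers had 0 counts for 4 of 6 genes. The sums of stem and cycling cell markers were 1357 to 1940 in control and 578 to 1136 in zinc deficient mice, with 1 of 6 called (Top2a, lower by 1.18 on the log2 scale, adjusted p = 0.0229), and all 6 differences below 0. Tuft cell markers reached 316 in zinc deficient 3 and 17.6 to 83.7 in the other mice. Goblet cell markers reached 2843 in zinc deficient 4 and 1985 in zinc deficient 3 beside 628 to 1373 in the others. In zinc deficient 4 they did not move together. Muc2, which made up most of the sum, Clca1 and Spdef were at their highest there. Fcgbp (111) and Zg16 (0.374) were at their lowest of all mice. Enterocyte markers were at 320 to 518 in control and 289 to 434 in zinc deficient mice. The sums of 4 enteroendocrine cell markers were 9.2 to 18.3 in control and 1.87 to 11.9 in zinc deficient mice, lowest in zinc deficient 4, with differences of -1.64 (SE 0.75) for Chga and -1.01 (SE 0.51) for Chgb, neither called. The Paneth identity was clear in every mouse (Lyz1 at 91423 TMM-scaled CPM or more), and of the Paneth cell markers Ang4 and Mptx2 were higher in all 4 zinc deficient mice without a call. The part of these other cells in the differences was not tested.

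The calls depended on scaling and on single mice. With library size alone as the scale, the median of all genes moved to -0.37, and 0 of 30 were called. Irf7 was at 1.12 (adjusted p = 0.184). Of the 30, 19 were above 0 and 11 below, and 26 lay above the all-gene median. All zinc deficient mice were above all control mice for 5 of 30 (Usp18, Oas1a, Oas1g, Ifi27 and Rtp4). They were all below for 0 (0.302% and 6.53% of all genes tested). Without control 2, control 3, control 4, zinc deficient 1 or zinc deficient 4, 1 gene was still called in each case, which was Irf7, and without zinc deficient 2 there were 3. Irf7 was called whichever mouse was left out (adjusted p from 0.00203 to 0.0249). With both control 1 and zinc deficient 2 left out, 7 were called (Irf7, Oas1a, Oasl2, Oasl1, Stat2, Oas3 and Helz2), while Usp18 (3.89, adjusted p = 0.0525) and Ifi27 (adjusted p = 0.107) were not.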

How the data were processed

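RNA-seq of sorted Paneth cells of 8 mice was analysed. The authors deposited raw read counts for each Ensembl identifier. The submitters' processing notes name FastQC 0.12.0, STAR 2.7.0a, DESeq2 and the build mm39. The sources used here do not give the counting program, its strand setting or the annotation. Identifiers were named with GENCODE M39 on GRCm39 (665 were not found, 0.0039% to 0.00991% of the counts of a mouse). The table held 0 columns of other samples.

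From these counts, edgeR 4.0.16 in R 4.3.3 was run over all genes (TMM, filterByExpr with a minimum count of 10, robust quasi-likelihood test, 8 mice, no covariate); the standard error is the log2 fold change divided by the square root of F. The step was tested on simulated data. Alternatives were DESeq2 1.42.0 (size factors; Wald test), library size alone, Defa genes left out of the scaling, no filter, no robust option, a block for the replicate number, and leaving out each mouse in turn. Leaving out control 1 and zinc deficient 2 together was added after seeing the data. Pairs of mice of a diet differed far beyond sampling noise. Floors of 3 counts cover counting error only.

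TPM used summed exon lengths and no TMM scaling. Sequences were read from the GRCm39 genome with Python 3.11.15, Biopython 1.88 and pandas 2.3.3. Genes named are all 43 and any gene of the pathway and marker lists; sequences are shown for called genes with a core match and for the near-identical pairs. Genes that overlap the 43 are named outside this rule. The members and lists were chosen with earlier results of these data known. The values of 2 genes of these lists are not reported here by themselves.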

Additional observations from a re-analysis of the deposited data

Results flagged for a closer look

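In each diet and for each of the 30 tested genes, the highest and the lowest mouse were checked by Dixon's criterion. It divides the gap to the nearest other mouse by the range of all 4 mice. Of 60 groups of 4 mice, 3 held a mouse far from the others, where chance gives about 1 in 20. Trim25 was at 69.7 TMM-scaled CPM in zinc deficient 2, with the nearest other mouse of the diet at 61.2. Oas1g was at 5.71 in zinc deficient 4, with the nearest at 2.65, and is the near copy of Oas1a, which was also highest in that mouse (22.5). Trafd1 was at 9.73 in zinc deficient 4, below the other 3 mice, of which the nearest was at 11.7.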

How the results depend on the processing

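Of the whole comparison, 44 genes were called, and 134 by DESeq2, 251 without the filter on low counts, 25 without the robust option, 11 with library size alone, 28 without control 1 and zinc deficient 2, and 8 to 36 with 1 mouse left out. Of the interferon-stimulated genes, 5 were called, and 10 by DESeq2, 12 without the filter, 3 without the robust option, 0 with library size alone and 1 to 5 with 1 mouse left out. Of the other pathway genes 0 were called, and 3 without the filter (Rnf213, Socs3 and Slfn9). Irf7 alone was called under every alternative except library size. With library size alone, differences turned below 0 for Trim25 (-0.27), Cmpk2 (-0.23), Isg20 (-0.057), Samd9l (-0.021), Parp9 (-0.019), Parp12 (-0.25) and Ifi35 (-0.26), and without control 1 and zinc deficient 2 they turned above 0 for Ifih1 (0.022) and Eif2ak2 (0.35). With 1 mouse left out, Ifih1 ran from -0.157 to 0.041, Eif2ak2 from -0.43 to 0.21, Ifi35 from -0.035 to 0.17 and Trafd1 from -0.18 to 0.011. The cause was not tested. With the replicate number as a block, 53 genes were called, 36 of them shared with the fit without it, and 6 interferon-stimulated genes (Stat2 added, adjusted p = 0.0397). The deviations of same-numbered mice correlated by 0.084, 0.090, 0.025 and 0.065 in pairs 1 to 4, and some correlated better with another number, so the numbers were not taken as pairs. At 8557690 to 12648005 counts a mouse, 13 of the 43 genes were too low to test.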
